A study of Mus musculus with 10 samples.

Results

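The red-cell miRNA miR-144 and the red-cell and muscle miRNA miR-486 were followed across small RNA libraries of hearts of male C57Bl6N mice. The hearts were taken 1 week after transverse aortic constriction (TAC), an operation that raises the pressure the left ventricle pumps against. The members were chosen by name: mmu-miR-144-3p, mmu-miR-144-5p, mmu-miR-486a-5p and mmu-miR-486b-5p (mmu stands for mouse and is left out from here on), which are 4 of the 1139 mature miRNAs in the tables. miR-486a-5p and miR-486b-5p had the same count in every library and are given once, as miR-486a-5p, which leaves 3 distinct members. The knockout group had 5 libraries from hearts labelled as CITED4 knockout, and the floxed control group 5 from hearts whose gene was flanked by recombination sites but intact. Both groups had the operation, and none of the 10 libraries is from an unoperated heart. CITED4 is a transcriptional co-regulator, and its own mRNA is not measured by small RNA libraries. Which cells lost the gene, and whether blood was flushed from the hearts before freezing, is not given in the sources used here. The labels do not say that each library is a separate animal, so the p-values speak only of variation among these libraries, part of which may be technical.

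Both loci are known from maturing red cells. The transcription factor GATA1 switches on the gene that carries miR-144 together with miR-451, and miR-144-3p is the arm usually counted as the guide. miR-486 sits inside Ank1, the gene of ankyrin 1, which anchors the membrane skeleton of red cells and is also made in short forms in striated muscle. It is among the most abundant miRNAs of red cells and is also counted among the muscle miRNAs. Heart tissue holds both muscle and blood, so its miR-486 can come from either. The comparison asked is therefore whether miR-486 varies across hearts with miR-144 or with the muscle miRNAs.

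The hairpin of miR-144 lies on chromosome 11 (chr11:78073005-78073070, plus strand, GRCm38), inside no other annotated gene and 99 bases before the hairpin of miR-451a. miR-451a was not analysed here. The hairpin of miR-486a (chr8:23142555-23142682, plus strand) lies in an intron of Ank1 in each of the 15 Ank1 transcripts that span it, and the hairpin of miR-486b (chr8:23142573-23142662, minus strand) shares all its 90 bases with it on the opposite strand. The miR-144 sequences are shown because both arms are members and behave differently below, and miR-133b-3p, miR-208a-3p and miR-499-5p as 3 of the 7 muscle miRNAs used for comparison. All are RefSeq sequences on GRCm38.p6. Capitals mark the 2 mature arms in the hairpin and the seed, bases 2 to 8 from the 5′ end, in each mature miRNA.
mir-144 hairpin: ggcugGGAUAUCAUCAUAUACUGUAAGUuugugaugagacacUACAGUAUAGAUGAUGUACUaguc
miR-144-5p: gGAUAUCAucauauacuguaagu
miR-144-3p: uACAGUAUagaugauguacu
miR-133b-3p: uUUGGUCCccuucaaccagcua
miR-208a-3p: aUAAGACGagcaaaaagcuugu
miR-499-5p: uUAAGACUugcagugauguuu
The arms of miR-144 have different seeds, and neither 7-base seed occurs in another mature miRNA of the RefSeq table. miR-208a-3p shares its 7-base seed with miR-208b-3p.

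The libraries held 13090707 ± 4480297 counts in the knockout group and 9936086 ± 1484042 in the control group (SD, n = 5 each), with 678 to 785 miRNAs detected. Levels are in CPM, counts scaled to a common library size with TMM factors. The heart muscle miRNA miR-1a-3p was the most abundant, at 217084 to 382310 CPM in knockout and 238883 to 497444 CPM in control hearts. Control replicate 3 stood apart from the other 9 libraries on the second principal component, at -9.98 against -2.02 to 3.69, and several correlations below are given with and without it.

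miR-144-3p had 100.5, 257, 259, 596 and 344 CPM in knockout replicates 1 to 5, against 133, 258, 510, 709 and 816 CPM in control replicates 1 to 5. The knockout values lay within or just below the control range, and the lowest library of each group was its replicate 1. Over all 10 libraries the level spanned 8.12-fold. miR-144-5p, the other arm of the same hairpin, had 113, 170, 184, 269 and 194 CPM in knockout hearts, against 145, 172, 281, 295 and 289 CPM in control hearts. It put the libraries in almost the same order within a span of only 2.60-fold. The lowest counts behind these values were 1218 for miR-144-3p and 1373 for miR-144-5p, both in knockout replicate 1.

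miR-486a-5p was far more abundant, with a median ratio of counts to miR-144-3p of 49.0 in knockout and 63.2 in control hearts. It had 11318, 12576, 18939, 24375 and 16356 CPM in knockout replicates 1 to 5, against 13481, 18721, 32225, 24804 and 28494 CPM in control replicates 1 to 5. The highest library was control replicate 3, and the groups overlapped over most of their range. miR-486a-5p took 1.38% to 2.39% of all counts in knockout hearts and 1.52% to 3.66% in control hearts, with an exact Clopper-Pearson interval of 3.65% to 3.67% (95%, counting error only) in control replicate 3. Fewer cells of a type and less RNA per cell cannot be told apart in such samples.

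**Figure D1:**
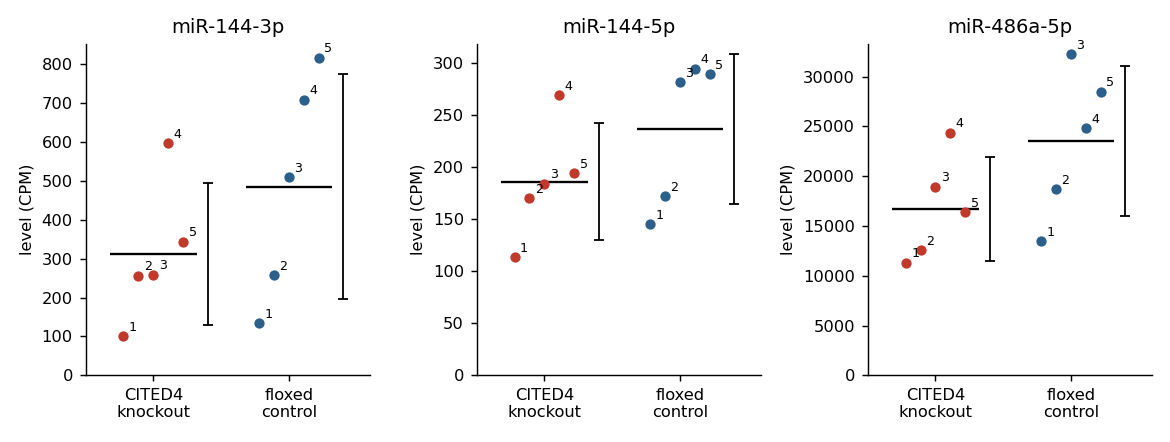
Level of miR-144-3p, miR-144-5p and miR-486a-5p in CPM (vertical axes from 0) in each library of CITED4 knockout (red) and floxed control hearts (blue), numbered by replicate, with the group mean (line) and SD (bar, n = 5). The groups overlap for all 3, and the span over libraries is 8.12-fold for miR-144-3p against 2.60-fold for miR-144-5p and 2.85-fold for miR-486a-5p.

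Between genotypes, the 3 distinct members had lower means in knockout hearts, and none passed the test. miR-486a-5p averaged 16713 ± 5244 CPM in knockout and 23545 ± 7516 CPM in control hearts (SD, n = 5 each), a log2 fold change of -0.49 ± 0.26 (SE, 95% interval -1.06 to 0.07). The unadjusted p was 0.079 and the adjusted p 0.64 by edgeR's quasi-likelihood test with Benjamini-Hochberg adjustment over 457 miRNAs. miR-144-3p averaged 311 ± 182 and 485 ± 289 CPM in knockout and control hearts, a log2 fold change of -0.64 ± 0.48 with an interval of -1.68 to 0.40. For miR-144-5p the log2 fold change was -0.35 ± 0.25, with an interval of -0.88 to 0.19. All 3 intervals of this fit, which takes the libraries as unpaired, include 0. A lower mean in knockout hearts was itself common, at 214 of 457 miRNAs (46.8%). Of all 457 miRNAs tested, 0 (0%) passed the adjusted threshold of 0.05 and 29 (6.35%) had an unadjusted p under 0.05, none of them a member. Of those, 16 (3.5%) were lower in knockout hearts. DESeq2 and limma-voom also called 0, with 45 and 23 at an unadjusted p under 0.05. The ranges of the 2 genotypes did not overlap for 3 of the 457 (0.656%), again no member.

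The 2 arms of miR-144 rose and fell together across hearts but not in proportion. Pearson's r of their log2 CPM over the 10 libraries was 0.98 and Spearman's rho 0.98 (permutation test, p = 1e-05, the smallest that 100000 resamples can give; adjusted p = 0.00017 over 17 relations). The ratio of miR-144-3p to miR-144-5p counts was 0.887, 1.51, 1.41, 2.22 and 1.77 in knockout replicates 1 to 5, against 0.919, 1.5, 1.81, 2.41 and 2.82 in control replicates 1 to 5. It was thus below 1 in the replicate 1 libraries of both genotypes, where miR-144 was lowest, and above 2 in control replicates 4 and 5 and knockout replicate 4, where miR-144-3p was highest. A fitted line gave 2.07 log2 units of miR-144-3p for each log2 unit of miR-144-5p. The SD of the log2 ratio was 0.55.

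miR-486a-5p followed both arms of miR-144. The members and lists were chosen with earlier results of these data known, among them that the erythroid miRNAs vary together. The permutation p-values of this and the other relations thus describe these libraries and are not independent evidence. With miR-144-5p, r was 0.93 and rho 0.90 (permutation test, p = 0.00031, adjusted p = 0.0013), and r was 0.92 both without the 2 libraries farthest from the median and after genotype means were removed. With miR-144-3p, r was 0.88 and rho 0.88 (permutation test, p = 0.0014, adjusted p = 0.0048). Without the 2 farthest libraries r was 0.80 and no longer passed (exact permutation test, adjusted p = 0.052). Removing genotype means left r with miR-144-3p at 0.88. The 2 replicate 1 libraries were low for all 3 members, while control replicate 3 held the most miR-486a-5p at an intermediate level of miR-144-3p.

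It followed the miR-133 muscle miRNAs at least as closely. miR-133b-3p, of a muscle family known to restrain growth of heart muscle cells, had 240, 215, 336, 387 and 279 CPM in knockout replicates 1 to 5, against 291, 304, 543, 476 and 536 CPM in control replicates 1 to 5. The highest control libraries were those highest in miR-486a-5p, and r was 0.96 with a rho of 0.98 (permutation test, p = 5.0e-05, adjusted p = 0.00042). miR-133a-3p, its near relative made beside miR-1a, had 1014, 994, 1329, 1469 and 1079 CPM in knockout hearts, against 1246, 1267, 1970, 1756 and 1861 CPM in control hearts. Its r with miR-486a-5p was 0.94 and its rho 0.98 (permutation test, p = 0.00011, adjusted p = 0.00062). Without the 2 farthest libraries the r values were 0.92 for miR-133b-3p and 0.89 for miR-133a-3p, and after removal of genotype means both were 0.95. miR-144-3p itself was less close to these miRNAs, with r = 0.80 for miR-133b-3p and 0.77 for miR-133a-3p. For miR-144-5p, the arm closer to miR-486a-5p, r with these miRNAs was not computed. The differences between these correlations were not tested.

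The other muscle miRNAs divided. miR-208a-3p, encoded in the adult heart myosin gene Myh6, had an r of 0.85 with miR-486a-5p (rho 0.85; permutation test, adjusted p = 0.0057) and 0.81 with miR-144-3p (adjusted p = 0.012, permutation test). miR-499-5p, encoded in Myh7b, had an r of 0.76 with miR-486a-5p (rho 0.90; permutation test, adjusted p = 0.019) and 0.84 with miR-144-3p (rho 0.88; permutation test, adjusted p = 0.0050). Without the 2 farthest libraries miR-208a-3p had an r of 0.77 and miR-499-5p one of 0.70 with miR-486a-5p, and neither passed after adjustment (exact permutation test, adjusted p = 0.070 and 0.075). Without control replicate 3, which had the most miR-486a-5p, the r of miR-499-5p with it was 0.93.

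miR-1a-3p, the most abundant miRNA of these hearts, had an r of 0.62 with miR-486a-5p that did not pass (rho 0.70; permutation test, adjusted p = 0.078). Without control replicate 3 its r was 0.94 and passed (exact permutation test, adjusted p = 0.0023). In that library miR-486a-5p was at its highest while miR-1a-3p, at 243301 CPM, was next to the lowest of the controls. With miR-144-3p, miR-1a-3p had an r of 0.73 (rho 0.83; permutation test, adjusted p = 0.026), and 0.86 without control replicate 3. miR-208b-3p, encoded in the fetal myosin gene Myh7, and miR-206-3p, mainly a miRNA of skeletal muscle that was at 26.9 CPM or less, did not pass with miR-486a-5p or miR-144-3p. Their r values were 0.11 and -0.41 with miR-486a-5p and 0.052 and 0.0053 with miR-144-3p. In all, 4 of the 7 muscle miRNAs passed with miR-486a-5p and 5 of 7 with miR-144-3p, over a family of 17 relations. Such r values were not rare: the lowest that passed ranked 63rd of 448 miRNAs for miR-486a-5p and 60th of 448 for miR-144-3p. The counts of passing relations rest on TMM scaling. With library totals only, miR-144-3p no longer passed with miR-1a-3p, miR-133a-3p, miR-133b-3p or miR-208a-3p, nor miR-486a-5p with miR-499-5p. miR-486a-5p then passed with miR-206-3p, with a negative r.

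**Figure D2:**
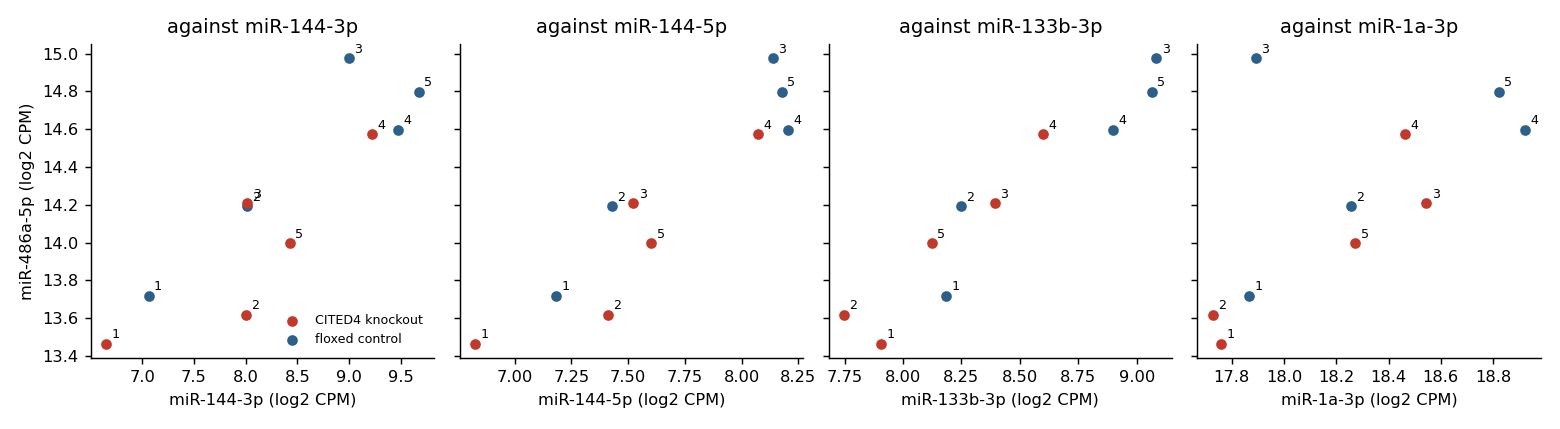
miR-486a-5p against miR-144-3p, miR-144-5p, miR-133b-3p and miR-1a-3p in log2 CPM, 1 point per library, CITED4 knockout in red and floxed control in blue, numbered by replicate. Points lie along a line for the first 3 (r of 0.88, 0.93 and 0.96), while control replicate 3 stands off the others for miR-1a-3p (r of 0.62 with it and 0.94 without it).

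Ratios of counts within a library do not depend on how libraries are scaled, and they put the miRNAs in a partly different order. The ratio of miR-486a-5p to miR-133b-3p varied least, with an SD of 0.15 on the log2 scale over 10 libraries. It lay between 47.2 and 63.0 in knockout hearts and between 46.4 and 61.7 in control hearts. The ratio to miR-144-5p had an SD of 0.19, with 74.0 to 103 in knockout hearts and 84.2 to 115 in control hearts. With miR-133a-3p the SD was 0.21, with miR-208a-3p 0.30, with miR-499-5p 0.35, with miR-1a-3p 0.42 and with miR-144-3p 0.60. It was 0.61 with miR-208b-3p and 0.73 with miR-206-3p. By this measure miR-144-5p stood before miR-133a-3p, and miR-144-3p, which was 4th by r, stood behind miR-1a-3p. The ratios of miR-486a-5p to miR-133b-3p and to miR-144-5p were thus the steadiest of the 9 computed. The SD of a ratio also depends on how widely each miRNA varies. The SD of log2 CPM was 1.00 for miR-144-3p, against 0.52 for miR-486a-5p, 0.47 for miR-144-5p and 0.47 for miR-133b-3p. A wide ratio to miR-144-3p therefore does not show that it and miR-486a-5p varied apart. The ratio to miR-144-3p was 40.9 to 113 in knockout hearts and 34.9 to 101.1 in control hearts and was highest in the replicate 1 libraries, where miR-144-3p was lowest. Without control replicate 3 the SD to miR-1a-3p was 0.16, and that to miR-499-5p was 0.19. The knockout and control ranges overlapped for each of these ratios.

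**Figure D3:**
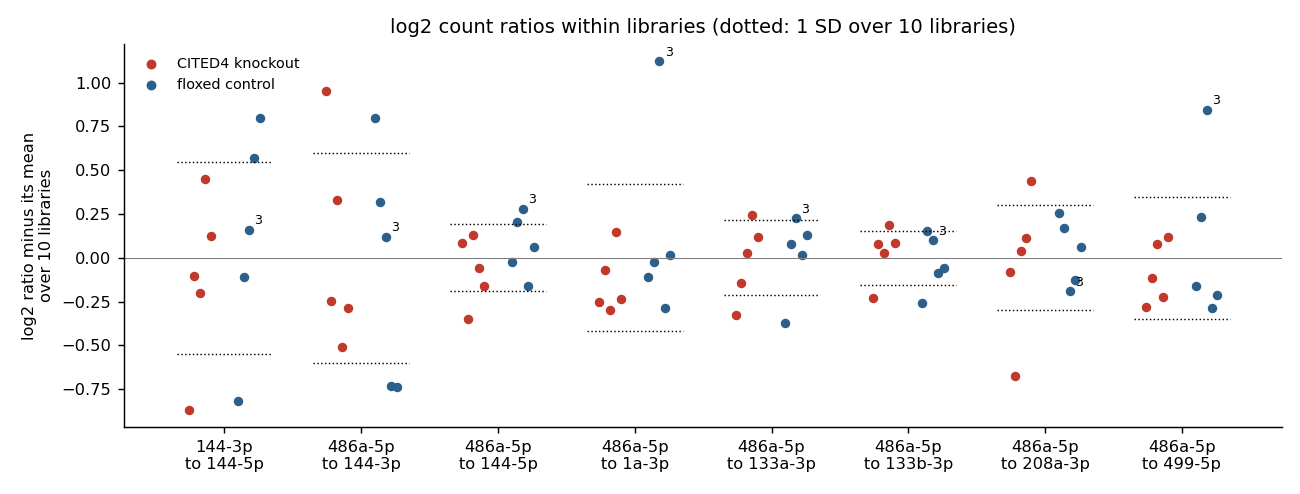
Log2 ratios of counts within each library, each minus its mean over the 10 libraries (vertical axis), for CITED4 knockout (red) and floxed control (blue), with dotted lines at 1 SD and control replicate 3 marked (ratios to miR-206-3p and miR-208b-3p are not drawn). The ratio of miR-486a-5p to miR-133b-3p has the narrowest spread of those drawn (SD 0.15), and the 2 ratios that involve miR-144-3p have SDs of 0.55 and 0.60.

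A fit with both miR-144-3p and the muscle miRNAs could not separate them, and the balance between them depended on the muscle term. In edgeR's quasi-likelihood fit over all 457 miRNAs, with genotype, miR-144-3p and the mean of the 7 muscle miRNAs as terms, miR-486a-5p rose by 0.20 ± 0.20 log2 units per SD of miR-144-3p (SE, 95% interval -0.24 to 0.65, adjusted p = 0.998). Its slope on the muscle mean was 0.24 ± 0.21 (interval -0.22 to 0.70, adjusted p = 0.73). With miR-133a-3p alone as the muscle term, the slope was 0.40 on it and 0.17 on miR-144-3p (edgeR, unadjusted p = 0.0051 and 0.091, adjusted p = 0.090 and 0.64). With miR-1a-3p alone, the slope was -0.043 on it and 0.45 on miR-144-3p (edgeR, unadjusted p = 0.69 and 0.0022, adjusted p = 0.94 and 0.10). miR-144-3p and the mean of the 7 muscle miRNAs were themselves correlated at r = 0.92 across the libraries. With these 2 terms alone, without genotype, that widens the variance of each slope 6.89-fold. The fit with genotype had 6 residual degrees of freedom. For miR-144-3p 1 miRNA was called (0.219%), which was miR-144-3p itself, and for the muscle mean 0 (0%), with 16 and 50 at an unadjusted p under 0.05. Taken singly, the muscle mean had an r of 0.90 with miR-486a-5p and 0.92 with miR-144-3p (permutation test, adjusted p = 0.0019 and 0.0011 over 4 relations). The log2 library total had an r of -0.20 and -0.10 with them (permutation test, adjusted p = 0.77 and 0.78).

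Many other miRNAs varied along the same line. Among 448 other distinct miRNAs, 23 had an r above 0.9 with miR-486a-5p and 20 one below -0.9, and the median r was -0.10. miR-133b-3p ranked 5th, miR-133a-3p 11th, miR-144-5p 16th, miR-144-3p 28th, miR-208a-3p 36th and miR-499-5p 63rd, with miR-1a-3p lower down. The 5 closest to miR-486a-5p were miR-30e-5p (r = 0.97), miR-378a-3p (0.97), miR-345-3p (0.96), miR-30c-5p (0.96) and miR-133b-3p (0.96). miR-30 miRNAs are abundant in heart muscle, and miR-378a lies in Ppargc1b, a gene of energy metabolism. For miR-144-3p the 5 closest that are not members were miR-499-3p (0.91), miR-27a-3p (0.90), miR-32-5p (0.90), miR-345-3p (0.89) and miR-486a-3p (0.87). The member miR-486a-5p (0.88) ranked 6th, just before miR-486a-3p. miR-499-3p is the opposite arm of miR-499-5p, which is on the muscle list. These likenesses are descriptions over 10 libraries that share their scaling.

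The first principal component of 439 miRNAs, computed without the members and the muscle list, held 44.0% of their variance. It correlated at 0.95 with miR-486a-5p, 0.93 with miR-144-5p, 0.89 with miR-144-3p, 0.97 with miR-133b-3p and 0.95 with miR-133a-3p, and at 0.73 with miR-1a-3p. With this component removed, a step chosen after the data were seen, none of the 17 relations other than that between the arms of miR-144 passed. In those residuals miR-486a-5p had an r of 0.26 with miR-144-3p, 0.42 with miR-144-5p, 0.42 with miR-133b-3p, 0.41 with miR-133a-3p and 0.50 with miR-208a-3p. With miR-1a-3p and miR-499-5p the r values turned negative, to -0.36 and -0.67. The closeness of miR-486a-5p to both miR-144 and miR-133 thus lay along the leading axis of variation among these hearts.

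**Figure D4:**
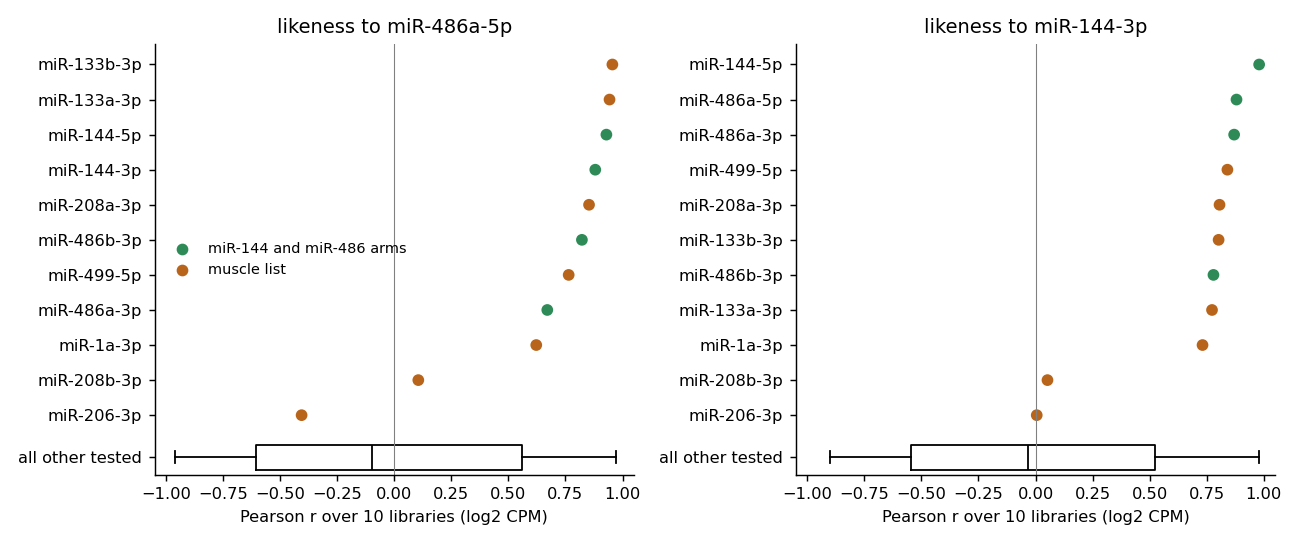
Pearson r over 10 libraries (log2 CPM, horizontal axis) of miR-486a-5p (left) and miR-144-3p (right) with the miR-144 and miR-486 arms (green) and the 7 muscle miRNAs (orange). The box shows quartiles and full range over the 448 other distinct miRNAs tested. For miR-486a-5p, miR-133b-3p (0.96) and miR-133a-3p (0.94) stand above both miR-144 arms. For miR-144-3p the single muscle miRNAs reach at most 0.84. The mean of the 7, not drawn, had an r of 0.90 with miR-486a-5p and 0.92 with miR-144-3p.

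The opposite arms of miR-486, looked at after the other values were known, were scarce. miR-486a-3p had 28.4, 52.8, 38.0, 48.0 and 36.7 CPM in knockout replicates 1 to 5, against 33.3, 36.9, 47.7, 69.0 and 76.5 CPM in control replicates 1 to 5. Its high libraries were control replicates 4 and 5, those highest in miR-144-3p. Over the 10 libraries its r was 0.87 with miR-144-3p (permutation test, adjusted p = 0.013 over 20 relations), against 0.67 with miR-486a-5p and 0.66 with miR-133b-3p (permutation test, adjusted p = 0.049 and 0.050). miR-486b-3p, at 5.31 to 8.15 CPM in knockout hearts and 5.55 to 12.6 CPM in control hearts, had an r of 0.82 with miR-486a-5p, 0.78 with miR-144-3p and 0.88 with miR-133b-3p (permutation test, adjusted p = 0.018, 0.020 and 0.013). Its counts were as low as 54 in 1 library.

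Some markers of other cells were related to the members, in either direction, and their part in the result was not tested. All 4 fibroblast miRNAs were inversely related to miR-486a-5p, with r from -0.92 to -0.82 and adjusted p from 0.010 to 0.029 (permutation test over 46 relations), and 3 of 4 passed with a negative r with miR-144-3p. For comparison, over 448 other distinct miRNAs the quartiles of r were -0.61 and 0.56 with miR-486a-5p, and 20 miRNAs had an r below -0.9. With miR-144-3p the quartiles were -0.55 and 0.52. The summed fibroblast level was 52492 to 132710 CPM in knockout hearts and 38600 to 108890 CPM in control hearts. miR-21a-5p, the most abundant of them, had an r of -0.92 with miR-486a-5p. Of 7 leukocyte miRNAs, miR-150-5p of mature lymphocytes passed with a positive r of 0.78 and the myeloid miR-223-5p with a negative one of -0.90. The more abundant arm miR-223-3p had an r of -0.46 (permutation test, adjusted p = 0.31), and 0.35 without the 2 farthest libraries. miR-142a-3p (-0.64), miR-142a-5p (0.63), miR-146a-5p (0.49) and miR-155-5p (-0.042) did not pass either and differed in sign. The summed leukocyte level was 1923 to 2045 CPM in knockout hearts and 1944 to 2200 CPM in control hearts. miR-223-5p also passed with miR-144-3p (r = -0.82). Of the 2 endothelial miRNAs, miR-126a-5p passed with miR-144-3p (r = 0.85). Its r with miR-486a-5p was 0.66 and did not pass, and 0.94 without control replicate 3. Of the 2 smooth muscle miRNAs miR-145a-5p passed with miR-486a-5p (r = 0.71, and 0.60 without control replicate 3). The summed endothelial level was 25223 to 34443 CPM in knockout and 26220 to 35318 CPM in control hearts. The summed smooth muscle level was 26124 to 32865 CPM in knockout and 27826 to 33670 CPM in control hearts. None of the markers tested was at 0 in all libraries.

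Other miRNAs found in red cells but also made in many other cells were less clear, and leaving out single libraries moved some of them either way. Of 8 tested over all 10 libraries, 0 had a positive r that passed with either miR-486a-5p or miR-144-3p. miR-16-5p, which is among the most abundant miRNAs of blood cells, was at 19085 to 21880 CPM in knockout and 17246 to 23287 CPM in control hearts. Its r was 0.088 with miR-486a-5p and 0.33 with miR-144-3p (permutation test, adjusted p = 0.87 and 0.47). Without control replicate 3 these r values were 0.83 and 0.76, and without knockout replicate 1 they were -0.10 and 0.17. miR-25-3p had an r of 0.24 with miR-486a-5p, 0.67 without control replicate 3 and -0.031 without knockout replicate 2. miR-92a-3p had an r of 0.30 with miR-486a-5p, and 0.19 without control replicate 3. miR-182-5p passed with a negative r, -0.71 with miR-486a-5p and -0.79 with miR-144-3p (permutation test, adjusted p = 0.048 and 0.024). The r values of miR-15b-5p, miR-93-5p, miR-363-3p and miR-183-5p were also negative and did not pass. They were -0.61, -0.27, -0.36 and -0.39 with miR-486a-5p, and -0.23, -0.29, -0.42 and -0.45 with miR-144-3p. The summed level of all 8 was 26094 to 29402 CPM in knockout hearts and 23668 to 31117 CPM in control hearts.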

How the data were processed

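The authors deposited 2 tables of 1139 mature miRNAs: raw read counts, and a signal equal to the counts divided by 1 factor per library, which equals the DESeq2 size factor within a relative tolerance of 1e-09. Tools named in the submitters' processing notes, with no roles, are cutadapt 1.10, STAR, Bowtie and DESeq2, and the build is GRCm38. The miRNA release, and how reads matching several miRNAs were counted, is not given in the sources used here. Columns were matched to libraries by title. The filterByExpr function kept 457 miRNAs (99.99% of counts), all members among them, and 15 tested rows repeat another row's counts. Knockout was compared with control in edgeR 4.0.16 (R 4.3.3, TMM factors, genotype as the term). Correlations use log2 CPM with a prior count of 2 and two-sided permutation tests (100000 resamples, exact under 10 libraries), adjusted by Benjamini-Hochberg within each family. The fits were tested on simulated data. The simulated fold changes and joint slopes were larger than those found for the members. The simulation thus does not show that effects of the size found could be detected. No library repeated another of its group within counting noise (smallest chi-square per degree of freedom, 210 among knockouts and 108 among controls), which does not show that they are separate animals. Hairpin positions are from GENCODE M21 on GRCm38. The miRNAs described were the members, the 7 muscle miRNAs, marker lists and the 5 other miRNAs closest in r to miR-486a-5p and to miR-144-3p. Members and lists were chosen with earlier results of these data known, among them that the erythroid miRNAs vary together. The same numbers, 1 to 5, occur in both groups without a stated meaning and were not taken as pairs.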

Additional observations from a re-analysis of the deposited data

Results flagged for a closer look

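In 3 of 44 groups examined (22 values, 2 genotypes), the gap between 1 library and its nearest neighbour was above 0.71 of the group's range, where chance gives about 1 in 20, or 2.2. The ratio of miR-486a-5p to miR-1a-3p was 0.132 in control replicate 3, against 0.0499 to 0.0615 in the remaining control libraries (gap 0.860 of the range). The ratio of miR-486a-5p to miR-206-3p was 2930 in the same library, against 741 to 1313 (0.738). miR-499-5p was at 3815 CPM in knockout replicate 4, against 1820 to 2396 CPM in the other knockouts (0.711).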

How the results depend on the processing

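The count of 0 miRNAs past the threshold was the same in all 18 alternative fits, and the 3 members' log2 fold changes stayed negative in each. With 1 library left out they ran from -1.01 to -0.36 for miR-144-3p, -0.51 to -0.19 for miR-144-5p and -0.66 to -0.33 for miR-486a-5p. Library totals only gave -0.40 for miR-486a-5p, and a median over all miRNAs of 0.14, against 0.03 with TMM. The 29 miRNAs at an unadjusted p under 0.05 became 8, 13, 65 or 18 when knockout replicate 1, 2, 4 or 5 was left out, and 84, 16, 10 or 6 for control replicate 1, 3, 4 or 5. They became 72 with the replicate block, 14 with library totals only, 102 of 1105 without a low-count filter and 16 of 282 with a stricter one. The replicate block gave log2 fold changes of -0.58, -0.34 and -0.48 for miR-144-3p, miR-144-5p and miR-486a-5p (SE 0.18, 0.14 and 0.17; edgeR unadjusted p = 0.0076, 0.031 and 0.014, adjusted p = 0.18, 0.26 and 0.18). All 3 are then among the 72 of 457, but none passed after adjustment. Each was lower in knockout in all 5 same-number pairs (other miRNAs not counted). Deviations from group means of same-numbered libraries had r of -0.12 to 0.45, 3 of 5 above 0.1, and for 4 of 10 libraries the best match was the one with the same number.

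With library totals only, miR-486a-5p lost its relation to miR-499-5p (0.62) and gained an inverse one to miR-206-3p (-0.80). miR-144-3p lost those to miR-1a-3p (0.60), miR-133a-3p (0.49), miR-133b-3p (0.64) and miR-208a-3p (0.68), and its r with miR-206-3p (-0.45) and miR-208b-3p (-0.17) turned negative. With genotype means removed, miR-486a-5p with miR-499-5p (0.73) and miR-144-3p with miR-1a-3p (0.71) were lost. Without the 2 farthest libraries, miR-486a-5p lost miR-144-3p (0.80), miR-208a-3p (0.77) and miR-499-5p (0.70), and turned to 0.44 with miR-206-3p. miR-144-3p then lost miR-1a-3p (0.50), miR-133a-3p (0.71), miR-133b-3p (0.74), miR-208a-3p (0.81) and miR-499-5p (0.71), with only 8 libraries in the test. With the first principal component removed, miR-486a-5p had r of 0.26, 0.42, 0.41, 0.42 and 0.50 with miR-144-3p, miR-144-5p, miR-133a-3p, miR-133b-3p and miR-208a-3p, and turned to -0.36 with miR-1a-3p and -0.67 with miR-499-5p. miR-144-3p then had 0.26, 0.35 and 0.22 with miR-1a-3p, miR-208a-3p and miR-499-5p and turned to -0.47 and -0.58 with miR-133a-3p and miR-133b-3p. Identical rows counted once turned miR-144-3p with miR-206-3p to -0.045.

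With 1 library left out, r of miR-486a-5p ran from 0.84 to 0.92 with miR-144-3p, 0.91 to 0.95 with miR-144-5p, 0.92 to 0.96 with miR-133a-3p, 0.94 to 0.97 with miR-133b-3p and 0.79 to 0.96 with miR-208a-3p, each passing in every case. It ran from 0.53 to 0.94 with miR-1a-3p, 0.71 to 0.93 with miR-499-5p and -0.11 to 0.35 with miR-208b-3p. That of miR-144-3p ran from 0.66 to 0.86 with miR-1a-3p, 0.72 to 0.83 with miR-133a-3p, -0.13 to 0.27 with miR-206-3p and -0.23 to 0.33 with miR-208b-3p. Losses without a library were those of miR-499-5p with miR-486a-5p and miR-133a-3p with miR-144-3p without knockout replicate 1, and miR-1a-3p with miR-144-3p without knockout replicate 1 or control replicate 1, 4 or 5. With 1 library left out, the joint slope of miR-486a-5p ran from 0.087 to 0.31 on miR-144-3p and 0.15 to 0.33 on the muscle mean. The slope on the muscle term turned to -0.043 with miR-1a-3p alone and to -0.10 with the replicate block, neither past the threshold. The 0 miRNAs called for the muscle term became 17 with miR-133a-3p alone, 5 with library totals only, 2 with DESeq2 size factors or miR-1a-3p alone, and 0 to 3 with 1 library left out; the 1 called for miR-144-3p became 3 with miR-1a-3p alone and 0 with the replicate block, with miR-144-5p as covariate or without knockout replicate 5. Apart from the smaller number of libraries, the cause of these changes was not tested.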

Other observations

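Arms of 46 hairpins had at least 100 counts each in every library. Among them miR-144 had the widest log2 ratio between arms, with an SD of 0.55 against a median of 0.32, and ranked 1st by SD, while its arms correlated at r = 0.98 against a median of 0.63. miR-574 was close, with an SD of 0.54, and its range was wider, 1.82 log2 units against 1.67 for miR-144. Its arms had an r of -0.24. miR-486a ranked 6th, with an SD of 0.40. This ranking was made after the arm ratio of miR-144 had been seen.

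At the other end of the likeness to miR-486a-5p stood miR-369-5p (r = -0.96), miR-379-5p (-0.96), miR-382-5p (-0.95), miR-434-3p (-0.95) and miR-296-3p (-0.94). The first 4 belong to the imprinted Dlk1-Dio3 cluster. For miR-144-3p the lowest r values were those of miR-323-3p (-0.90), miR-34c-5p (-0.90), miR-379-5p (-0.89), miR-3081-3p (-0.89) and miR-34b-5p (-0.89). Both lists were read from the same 10 libraries as the likeness itself.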
